A study of Mus musculus with 18 samples.

Results

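The hippocampus of wild-type mice was set against their cerebral cortex, gene by gene, over 6 one-colour microarrays, 3 from each region. The arrays were chosen by their sample titles alone, as the wild-type hippocampus and wild-type cortex samples among the 18 of the series. All 6 came from male 129SV mice with an intact Nfe2l2 gene, which encodes the antioxidant transcription factor NRF2, and per the series title the mice were unstressed. No transgene or treatment is named for them, and the sources used here do not state their age. The other 12 arrays of the series were Nfe2l2 knockout hippocampus and knockout cortex, and brainstem of both genotypes, with 3 arrays each. The design text speaks of independent RNAs, and the titles number the samples of a genotype within a region. It is not known whether hippocampus and cortex of the same number came from the same animal, or whether RNA of several animals was pooled.

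The hippocampus is folded allocortex that serves memory and spatial navigation. Its granule cells in the dentate gyrus receive input from the entorhinal cortex and send mossy fibres to the pyramidal cells of CA3, which in turn excite those of CA1. The neocortex is layered: neurons of the upper layers connect cortical areas with each other, and those of the deep layers project to thalamus, brainstem, spinal cord and striatum. Both regions share glia, vessels and the main classes of GABAergic interneurons.

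Each value below is the log2 of the background-subtracted spot intensity minus the 75th percentile of its array. A level of 0 therefore equals that percentile, and a difference of 1 is a 2-fold difference of intensity. Levels of different genes cannot be set against each other, because probes differ in their response. Differences are hippocampus minus cortex with the standard error of the model, and a gene was called when its adjusted p was under 0.05 (limma, two-sided, Benjamini-Hochberg over all 22672 genes tested). Because the deposited table of the whole series holds other arrays under 7 of its 18 column titles, among them all 3 wild-type hippocampus columns, the per-array scanner files were used throughout. In these files Nfe2l2 was at 0.93, 1.07 and 0.83 in wild-type hippocampus and at 0.76, 0.81 and 0.98 in wild-type cortex and did not pass the test between regions (0.09 ± 0.54).

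Between 73.1% and 75.1% of the spots were well above background on the hippocampus arrays and between 71.0% and 72.1% on the cortex arrays, and 0 were saturated. Levels over all genes correlated at 0.991 to 0.995 within hippocampus, at 0.987 to 0.996 within cortex and at 0.974 to 0.984 between the regions. The hippocampus arrays were scanned on slides 2 and 3 and the cortex arrays on slides 4 and 5, so slide and region cannot be told apart within these 6 arrays. In tissue RNA, fewer cells of a type and less RNA per cell cannot be told apart either.

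Of the 22672 genes tested, 3797 (16.7%) were called, 1601 higher in hippocampus (7.06%) and 2196 lower (9.69%). Among the 14826 genes with a symbol, from which the gene lists are drawn, 997 were called higher and 1784 lower. The lower share is thus somewhat larger among these than over all genes. Most of these differences were modest, with a median size of 0.755 among called genes. A difference of at least 1 was reached by 611 higher and 657 lower genes, one of at least 2 by 143 and 172, and one of at least 3 by 41 and 42. The levels of the 2 groups did not overlap in 9090 genes (40.1%). The median difference over all genes tested was 0.026, which serves as the background for the medians of gene groups below.

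**Figure D1:**
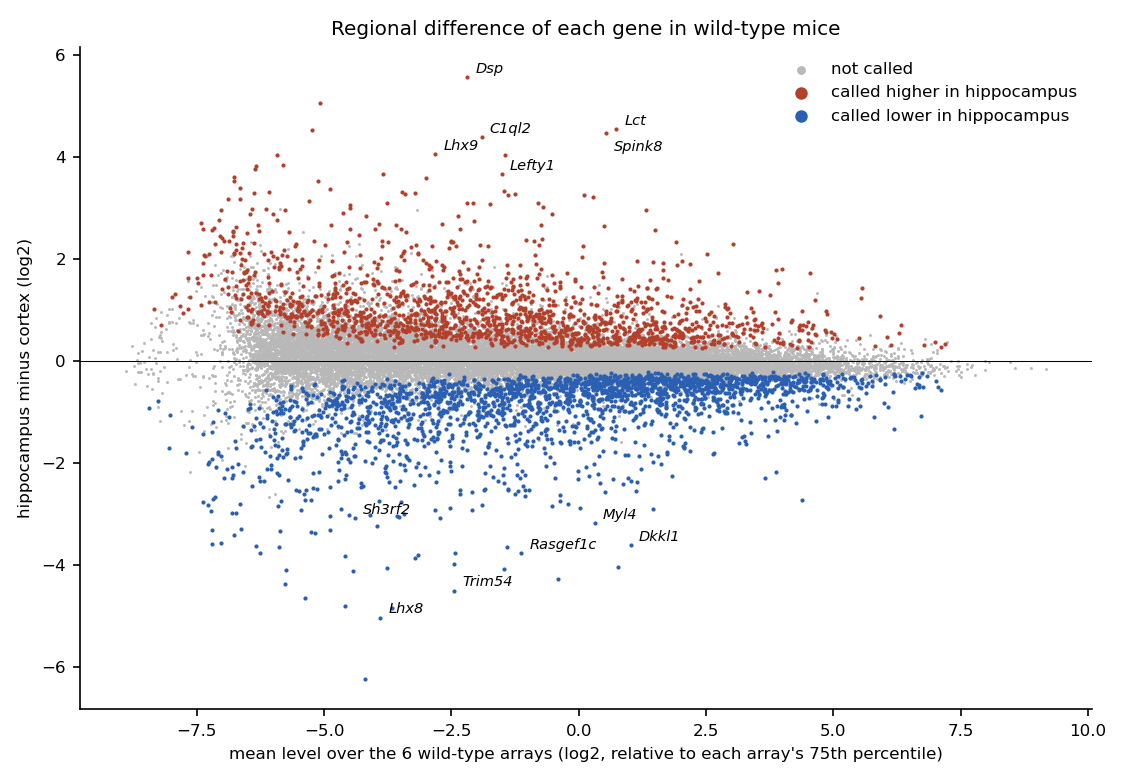
Difference between hippocampus and cortex (log2, y axis) against the mean level over the 6 wild-type arrays (log2 relative to the 75th percentile of each array, x axis), 1 point per gene. Red points are the 1601 genes called higher in hippocampus, blue points the 2196 called lower and grey points those not called; 6 genes with large differences in each direction are labelled.

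Among genes above background on all 6 arrays, the largest difference in favour of hippocampus was that of Dsp, which encodes desmoplakin, the plaque protein of desmosomes. It was at 0.93, 0.54 and 0.28 in hippocampus and at -5.34, -4.93 and -4.67 in cortex, a difference of 5.56 ± 0.36 (adjusted p = 2.47e-07) or 47.3-fold. The 3 Dsp probes differed by 3.28 to 6.13. Lct, the gene of the disaccharidase lactase, was at 3.41, 2.82 and 2.81 in hippocampus and at -1.63, -1.78 and -1.20 in cortex (4.55 ± 0.24, adjusted p = 5.06e-08, 23.4-fold). Both genes are used as markers of dentate granule cells, and in both the lowest hippocampus array lay far above the highest cortex array.

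Promoter windows show the genomic setting of some transcripts that differ between the regions. Windows are given for 2 dentate granule cell markers (Lct and Dsp) and 2 upper-layer markers (Rspo1 and Stard8). These markers had the smallest p among markers called higher and lower, respectively, that have a single promoter window. Markers on 1 chromosome and those with several windows were left out of this choice, whatever their p. The windows run from 250 bases before to 50 bases after the start, 5′ to 3′ on the strand of the gene. They are RefSeq sequences of build GRCm38.p6, whereas the array design refers to mm9, and capitals mark the E-box motif CANNTG, which reads the same on both strands and is the core bound by basic helix-loop-helix factors. The windows are chr1:128328269-128328568 (minus strand) for Lct, chr13:38151044-38151343 (plus strand) for Dsp, chr4:124986180-124986479 (plus strand) for Rspo1 and chrX:99042331-99042630 (plus strand) for Stard8.
Lct: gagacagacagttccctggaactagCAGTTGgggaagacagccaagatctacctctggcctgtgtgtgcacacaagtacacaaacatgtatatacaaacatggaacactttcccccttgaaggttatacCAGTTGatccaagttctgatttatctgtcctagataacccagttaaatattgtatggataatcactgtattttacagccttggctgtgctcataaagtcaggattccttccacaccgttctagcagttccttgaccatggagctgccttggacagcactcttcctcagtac
Dsp: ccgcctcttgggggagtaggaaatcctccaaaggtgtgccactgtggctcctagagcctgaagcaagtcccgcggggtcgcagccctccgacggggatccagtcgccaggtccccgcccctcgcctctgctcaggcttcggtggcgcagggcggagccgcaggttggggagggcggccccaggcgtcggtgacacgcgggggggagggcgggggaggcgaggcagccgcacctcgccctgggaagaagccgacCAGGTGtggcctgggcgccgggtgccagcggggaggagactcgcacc
Rspo1: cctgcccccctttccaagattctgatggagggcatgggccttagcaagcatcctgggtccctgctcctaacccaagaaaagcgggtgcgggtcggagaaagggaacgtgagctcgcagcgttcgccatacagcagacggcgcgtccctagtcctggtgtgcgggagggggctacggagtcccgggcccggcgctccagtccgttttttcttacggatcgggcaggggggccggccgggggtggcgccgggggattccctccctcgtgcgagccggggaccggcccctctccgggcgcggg
Stard8: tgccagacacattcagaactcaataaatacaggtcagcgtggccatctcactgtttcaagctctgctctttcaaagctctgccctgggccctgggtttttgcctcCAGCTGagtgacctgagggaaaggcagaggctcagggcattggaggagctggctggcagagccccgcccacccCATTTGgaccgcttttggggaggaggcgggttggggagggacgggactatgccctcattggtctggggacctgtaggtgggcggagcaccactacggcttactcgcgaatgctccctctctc
The Lct window held 2 such motifs and 1 CpG, the Dsp window 1 motif and 27 CpGs, the Rspo1 window 0 motifs and 29 CpGs, and the Stard8 window 2 motifs and 9 CpGs. Of the 22862 genes with a single window in the table, 72.4% held at least 1 CANNTG. Among those called higher in hippocampus the share was 66.0% of 615 genes, and among those called lower 67.2% of 1035. The same share was 64.7% over all 9425 tested genes with a single window, close to both shares; among genes with a difference of at least 1 it was 74.0% of 215 higher and 71.3% of 289 lower genes. The GC content of the windows was 60.7% in the median for genes called higher and 60.3% for genes called lower, beside 60.3% for tested genes. Genes with a difference of at least 1 had fewer CpGs per window, with a median of 13 for the higher and 12 for the lower ones, beside 20 for all tested genes; this is a description of composition and was not tested.

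Other large differences in favour of hippocampus belonged to genes of several kinds. Spink8, a Kazal-type protease inhibitor, was at 2.99, 2.59 and 2.74 in hippocampus and at -1.81, -1.95 and -1.35 in cortex (4.48 ± 0.40, adjusted p = 4.53e-06). C1ql2, a secreted C1q-like protein of mossy fibre synapses, was at 0.57, 0.07 and 0.20 in hippocampus and at -3.87, -4.29 and -4.14 in cortex (4.38 ± 0.32). Lhx9, a LIM homeobox transcription factor, was at -0.69, -0.82 and -0.87 in hippocampus and at -4.68, -4.89 and -5.00 in cortex (4.06 ± 0.19). In none of the 3 did the regions overlap. Lefty1, an inhibitor of Nodal signalling (3.66 ± 0.27), Il16, a cytokine (3.34 ± 0.21), Cd163l1, a scavenger receptor (3.32 ± 0.25), Popdc3, a Popeye domain protein (3.28 ± 0.29), Fibcd1, an acetyl-group receptor (3.28 ± 0.28), the tetraspanin Tspan18 (3.26 ± 0.21), Olfml2b (3.25 ± 0.23), and Npy2r, a neuropeptide Y receptor (3.1 ± 0.21), followed, each with adjusted p between 2.47e-07 and 3.56e-06. Rasd1, a small G protein induced by glucocorticoids, differed by 3.29 ± 0.68 with a wide spread, at -0.42, -2.19 and -2.07 in hippocampus and -5.33, -3.93 and -5.30 in cortex.

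Some genes were well above background on all 3 hippocampus arrays and on 0 cortex arrays, so that only a lower bound of the fold can be given. For this bound the cortex level of an array was taken as its dimmest well-measured signal, unless the probe itself read higher. C4bp, which encodes a complement inhibitor, was at least 16.6-fold higher in hippocampus (-2.61, -2.48 and -2.59, against -8.91, -6.58 and -7.36 in cortex, adjusted p = 4.53e-06). Its fitted difference was 5.06, and 4.41 without cortex array 1. Krt79, a keratin, was at least 6.53-fold higher, and Il27ra, a cytokine receptor subunit, at least 5.01-fold. Several other genes among the largest bounds in favour of hippocampus, not named here, lost the call with another background correction, normexp. Their adjusted p there ran from 0.0696 to 0.451 (limma). In all, 117 called genes had such a bound in favour of hippocampus and 46 in favour of cortex.

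The largest negative difference among genes above background on all 6 arrays was that of Lhx8, a LIM homeobox factor of basal forebrain cholinergic neurons. It was at -5.59, -6.79 and -6.86 in hippocampus and -1.15, -1.68 and -1.32 in cortex (-5.03 ± 0.72, adjusted p = 0.000232, 32.6-fold). On hippocampus arrays 2 and 3 it lay close to their dimmest well-measured signal (-6.93 and -6.89), so the size of this fold is uncertain. Trim54, a ring finger protein known from muscle, was at -5.12, -4.99 and -4.0 in hippocampus and -0.46, 0.19 and -0.34 in cortex (-4.50 ± 0.68). Hippocampus array 3 was the highest of its group for Dkkl1, a dickkopf-like secreted protein, at -1.72, -1.12 and 0.50 in hippocampus and 2.79, 2.93 and 2.76 in cortex (-3.61 ± 0.45, and -4.25 without array 3). Rasgef1c, an exchange factor for Ras proteins (-3.76 ± 0.54), Myl4, a myosin light chain (-3.18 ± 0.28), Ido1, an enzyme of tryptophan breakdown (-3.07 ± 0.40), Kiss1, the kisspeptin precursor (-3.06 ± 0.29), and the metalloprotease Adam33 (-3.03 ± 0.42) also fell, with adjusted p between 4.25e-06 and 0.000238. So did Slc35d3 (-2.92 ± 0.28), Otop2, a proton channel (-2.88 ± 0.24), and Cd6, a lymphocyte surface receptor (-2.88 ± 0.37, with its 2 probes at -2.88 and -0.83). Sh3rf2 (-3.08 ± 0.89, adjusted p = 0.0281) was no longer called when any of the 6 arrays was left out, with adjusted p between 0.0513 and 0.0858.

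S100a5, a calcium-binding protein abundant in the olfactory system, had the largest bound in the other direction and was at least 52.0-fold lower in hippocampus. It was at -7.41, -7.06 and -7.49 there, well above background on 0 arrays, and at -1.29, -2.08 and 0.11 in cortex (fitted difference -6.23 ± 0.55, and -5.63 without cortex array 3). The desmosomal plakophilin Pkp1 was at least 6.31-fold lower and Trdn, the triadin of muscle calcium stores, at least 6.02-fold lower. Nkx2-1, a homeobox factor of the ventral forebrain, was at least 3.18-fold lower (adjusted p = 0.00178, and 0.0613 with another background correction, normexp).

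**Figure D2:**
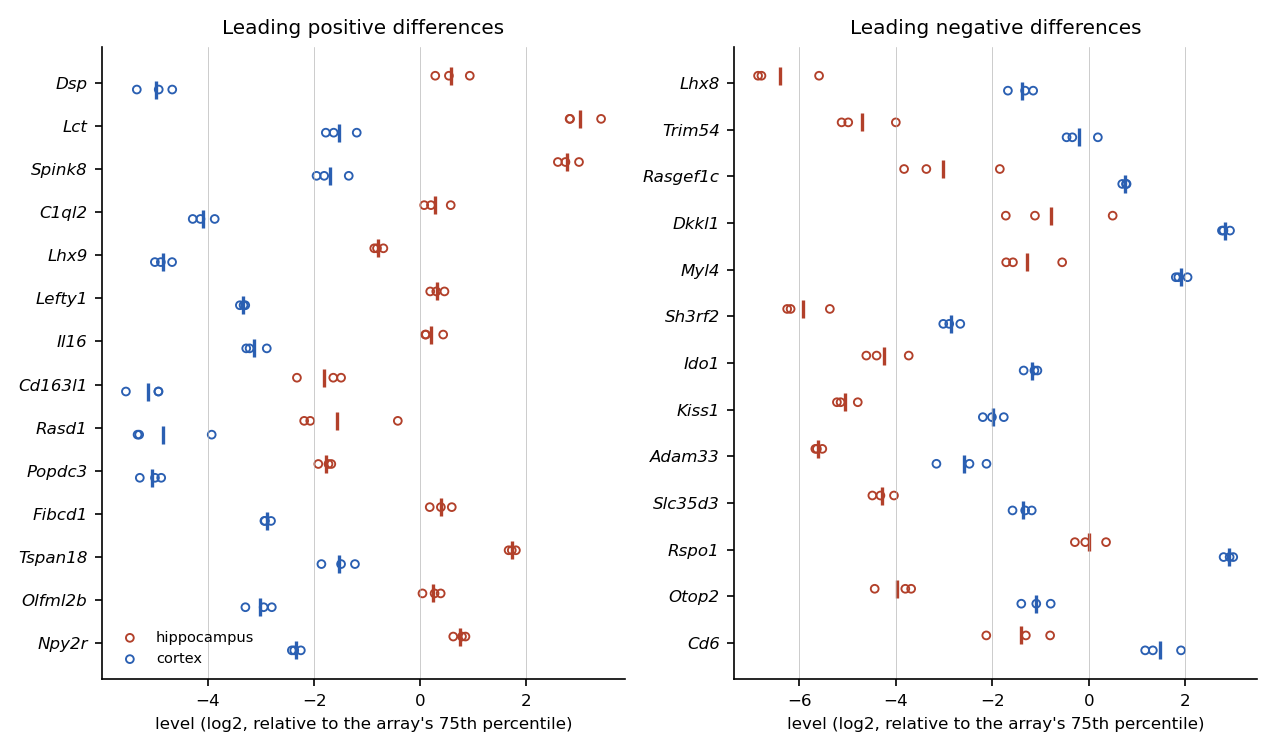
Levels (log2 relative to the 75th percentile of the array, x axis) of 14 genes among those with the largest positive and 13 among those with the largest negative difference, above background on all 6 arrays. Circles are single arrays and bars the mean of a region, with hippocampus in red above cortex in blue; in no gene shown do circles of the 2 regions overlap.

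Markers of hippocampal fields were mostly higher in hippocampus. Of 13 tested markers of dentate granule cells 10 were called higher and 1 lower, with a median difference of 1.25. Besides Dsp, Lct and C1ql2 they included Tdo2, a tryptophan dioxygenase measured above background on 3 hippocampus arrays and 1 cortex array. Gsg1l, an auxiliary subunit of AMPA receptors, went the other way, at 0.50, 0.74 and 1.26 in hippocampus and 2.56, 2.80 and 2.52 in cortex (-1.79 ± 0.26, adjusted p = 0.000279). Prox1, the homeobox factor that specifies granule cells and singled out here after its values were seen, differed by 2.11 ± 0.28.

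Of 8 markers of CA1 pyramidal cells 4 were called higher and 0 lower (median 0.71). Spink8, Lefty1 and Fibcd1 have been given above, and the fourth was Pou3f1, a POU domain factor (0.97 ± 0.23, adjusted p = 0.00943). Of 10 markers of CA2 and CA3 pyramidal cells 7 were called higher and 2 lower (median 1.06). Npy2r, Ntf3 (neurotrophin 3, 2.12 ± 0.27), the adhesion protein Amigo2 (1.84 ± 0.24), the kainate receptor subunit Grik4 (1.21 ± 0.16) and Rgs14, a regulator of G-protein signalling that limits plasticity in CA2 (1.03 ± 0.20), were among the higher ones. The lower ones were Coch, an extracellular matrix protein (-2.40 ± 0.32), and Cacng5, an AMPA receptor auxiliary subunit (-0.49, not called without hippocampus array 2, hippocampus array 3 or cortex array 3, with adjusted p up to 0.155). Of 8 markers of the hippocampus in general 6 were called higher and 0 lower (median 1.04), with Cabp7, a calcium sensor (3.08 ± 0.36), Zbtb20, a zinc finger factor required for hippocampal identity (1.92 ± 0.18), and Nr3c2, the mineralocorticoid receptor (1.90 ± 0.26), leading. Over all genes tested 7.06% were called higher.

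**Figure D3:**
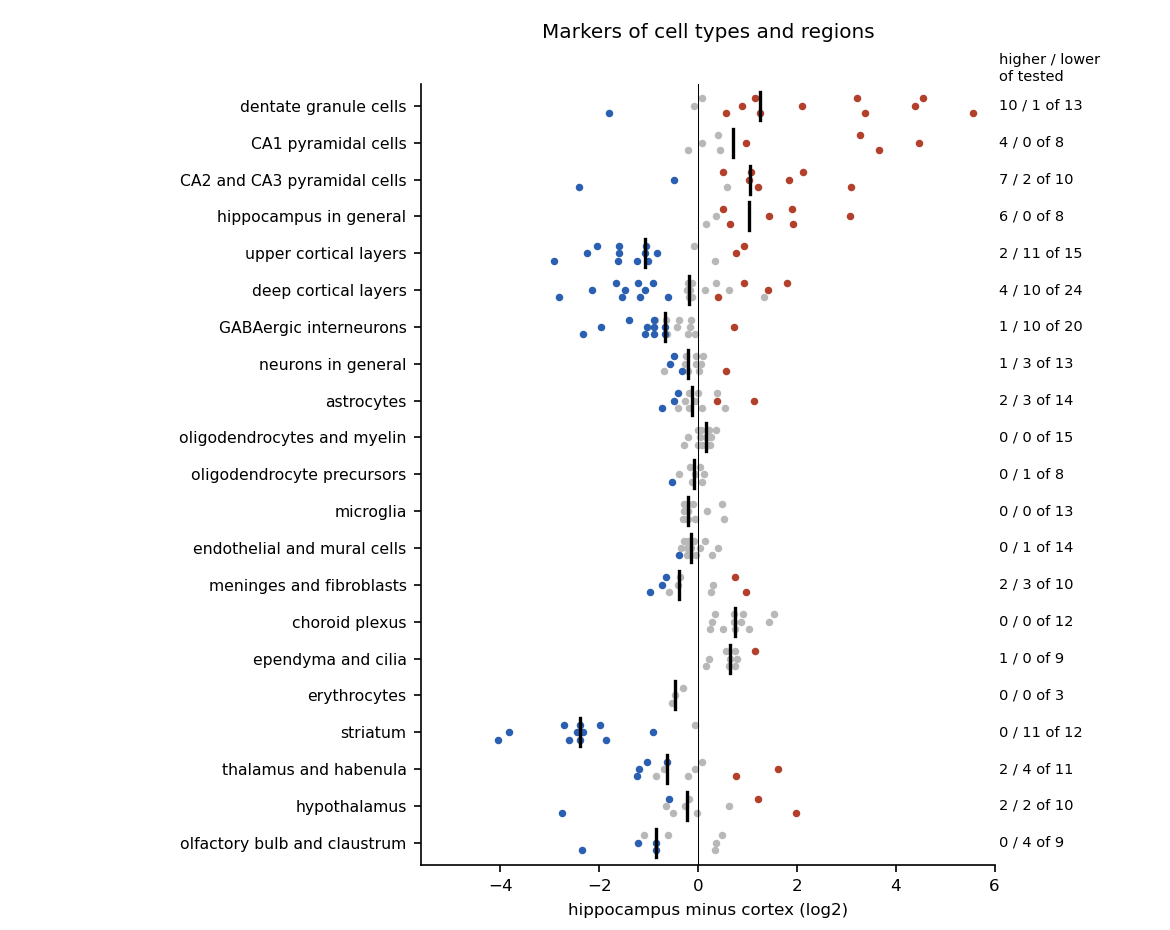
Difference between hippocampus and cortex (log2, x axis) of the tested markers of each cell type or region, 1 point per gene; red points were called higher in hippocampus, blue points lower, grey points were not called, and the black bar is the median. Numbers on the right give the genes called higher and lower of those tested; striatum markers have a median of -2.39, dentate granule cell markers one of 1.25.

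Of 15 markers of the upper cortical layers 11 were called lower and 2 higher, with a median of -1.08, beside 9.69% called lower over all genes. Rspo1, the Wnt agonist R-spondin 1, was at -0.29, -0.07 and 0.36 in hippocampus and at 2.99, 2.79 and 2.92 in cortex (-2.90 ± 0.18, adjusted p = 2.47e-07, 7.49-fold). Lamp5, a membrane protein of synaptic vesicles, was at 0.46, 0.42 and 1.23 in hippocampus and 2.98, 2.80 and 3.1 in cortex (-2.25 ± 0.17). The homeobox factor Cux2 differed by -1.60 ± 0.23, Stard8, a GTPase-activating protein, by -1.60 ± 0.17, and Rorb, the nuclear receptor of layer 4, by -0.84 ± 0.14. The adhesion protein Mdga1 (0.93 ± 0.13) and the sodium channel subunit Scnn1a (0.78 ± 0.14), both also used as layer markers, were higher in hippocampus. The mean level of the list was -1.47, -1.47 and -1.16 on hippocampus arrays 1, 2 and 3 and -0.31, -0.33 and -0.41 on the cortex arrays.

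Markers of the deep layers were split, with 10 of 24 called lower and 4 higher (median -0.19); without hippocampus array 1, 5 were called lower. Foxp2, a forkhead factor of layer 6, was at -3.78, -3.53 and -2.61 in hippocampus and -0.47, -0.53 and -0.46 in cortex (-2.82 ± 0.35, adjusted p = 6.81e-05). Oprk1, the kappa opioid receptor, differed by -2.14 ± 0.31, Rprm, a cell cycle inhibitor, by -1.47 ± 0.31, and Pcp4, a calmodulin regulator, by -1.17 ± 0.12. Bcl11b, a zinc finger factor of subcerebral projection neurons that granule cells and CA1 also express, was higher in hippocampus (0.92 ± 0.16), as was Lratd2 (1.42 ± 0.24).

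Striatum markers were the list furthest below the background. Of 12 tested, 11 were called lower in hippocampus and 0 higher, with a median of -2.39. Drd2, the D2 dopamine receptor, was at -4.46, -4.59 and -4.30 in hippocampus and at -2.08, -2.03 and -1.93 in cortex (-2.44 ± 0.17, adjusted p = 6.00e-07). Penk, the enkephalin precursor (-2.72 ± 0.31), Tac1, the substance P precursor (-2.32 ± 0.19), Rgs9, a GTPase accelerator of medium spiny neurons (-2.39 ± 0.26), and Rarb, a retinoic acid receptor (-1.86 ± 0.20), were lower as well. Isl1, a LIM homeobox factor of striatal neurons, was above background on 2 of 3 hippocampus arrays (fitted difference -3.82 ± 0.46). The member not called was Adora2a, an adenosine receptor (-0.06 ± 0.17). The summed level of the 12 markers, in units of the 75th percentile, was 11.7, 10.02 and 14.5 on the hippocampus arrays and 68.7, 69.3 and 84.3 on the cortex arrays. Whether the cortex samples held striatal tissue was not tested, and several genes in the following paragraphs are on this list too. Of 9 markers of olfactory bulb and claustrum 4 were called lower and 0 higher, and 2 lower without hippocampus array 1, hippocampus array 2 or cortex array 3; Th, the rate-limiting enzyme of dopamine synthesis, led them (-2.35 ± 0.42).

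Among 20 interneuron genes, 10 were called lower and 1 higher in hippocampus, with a median of -0.67. Vip, the vasoactive intestinal peptide of a cortical interneuron class, was at -1.18, -0.81 and -0.36 in hippocampus and 0.57, 0.60 and 0.69 in cortex (-1.40 ± 0.21, adjusted p = 0.000349). Npy, neuropeptide Y, differed by -0.90 ± 0.13. Tac1, which is on the striatum list too, had the largest difference. Nos1, the neuronal nitric oxide synthase, was the higher one (0.73), but not with normexp (0.23, adjusted p = 0.146). Sst, the somatostatin gene of another large class and named after its values were seen, was not called, at 4.01, 4.21 and 4.37 in hippocampus and 4.29, 4.25 and 4.54 in cortex (-0.16 ± 0.17).

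Of 17 neuropeptide precursors 9 were called lower in hippocampus (7 to 8 with 1 array left out) and 1 higher (median -0.42). Adcyap1, the PACAP precursor, was at -1.41, -0.53 and -0.22 in hippocampus and at 1.44, 1.21 and 1.28 in cortex (-2.03 ± 0.25). Cartpt, the precursor of the CART peptides, was at -0.79, -1.08 and -0.32 in hippocampus and 1.58, 1.43 and 1.45 in cortex (-2.22 ± 0.20). Trh, thyrotropin-releasing hormone, was at -5.28, -5.24 and -5.34 in hippocampus and -2.52, -2.52 and -2.59 in cortex, but its variance over all 6 groups was large (-2.75 ± 0.77, adjusted p = 0.024, and 0.0566 to 0.0685 with any 1 array left out). Grp, gastrin-releasing peptide, was higher, at 2.27, 2.60 and 2.45 in hippocampus and 1.03, 1.35 and 1.20 in cortex (1.25 ± 0.16, adjusted p = 9.43e-05). Pmch, the melanin-concentrating hormone precursor and a hypothalamic marker, was higher too (1.98 ± 0.41). In that list of 10 hypothalamic genes, 2 were called higher and 2 lower, and between 1 and 3 were called in all when 1 array was left out.

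Myelin, microglial, precursor and vessel genes differed little, whereas astrocyte genes were called in both directions. Of 15 myelin genes and of 13 microglial genes, 0 were called in either direction (medians 0.17 and -0.20), of 14 endothelial and mural genes 1 lower, and of 8 precursor cell genes 1 lower. The endothelial and mural count and the precursor count were 0 to 1 lower with 1 array left out, and the first 0 to 1 higher. Without 1 array, at most 1 microglial gene was called in each direction. Gfap, the intermediate filament of astrocytes, differed more, at 2.26, 2.02 and 2.03 in hippocampus and at 1.05, 0.61 and 1.24 in cortex (1.14 ± 0.15, adjusted p = 0.00014, 2.20-fold). Another astrocyte gene, the folate enzyme Aldh1l1, was lower in hippocampus (-0.72 ± 0.11). Of the 14 astrocyte genes 2 were called higher and 3 lower (1 to 2 each with 1 array left out), in all 35.7% beside 16.7% of all genes tested. Besides Gfap and Aldh1l1, the other 3 (Aqp4, Aldoc and S100b) lost the call when certain arrays were left out. Of 13 general neuronal genes 1 was called higher and 3 lower; those 3 (Eno2, Rbfox3 and Tubb3) differed by -0.32, -0.49 and -0.56 and were no longer called without hippocampus array 1, hippocampus array 2 or any cortex array, nor was Rbfox3 without hippocampus array 3.

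Choroid plexus and ependyma, which line the ventricle beside the hippocampus, varied between single arrays. The summed level of 12 choroid plexus genes was 99.0, 65.8 and 13.1 on hippocampus arrays 1, 2 and 3 and 22.1, 36.8 and 36.03 on the cortex arrays, so hippocampus array 3 lay below all cortex arrays and the others above them. All 12 had a positive mean difference (median 0.74) and 0 were called. Without hippocampus array 3 the median was 2.24, and without array 1 it was -0.14. Of 9 ependymal and ciliary genes 1 was called higher, Tmem212 (1.15 ± 0.35, adjusted p = 0.0391); without hippocampus array 3, 5 were called, and 0 when any other array was left out. Meningeal genes were split, with 2 of 10 higher and 3 lower, and 1 to 2 higher and 1 to 3 lower when an array was left out.

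Transcription factors that pattern the pallium were called in both directions, 7 of 22 higher and 4 lower (median 0.016); without cortex array 1 the counts were 5 and 2, and 2 were lower also without hippocampus array 2 or cortex array 3. Dmrt3, a doublesex-type factor above background on 3 hippocampus arrays and 2 cortex arrays, differed by 2.36 ± 0.56 (adjusted p = 0.00964, and 0.0545 without cortex array 1). Several basic helix-loop-helix factors of excitatory neurons were higher as well. Neurod6 was at 2.50, 2.38 and 2.39 in hippocampus and 0.54, 0.43 and 0.50 in cortex (1.94 ± 0.22, adjusted p = 3.22e-05). Bhlhe22 was at 2.04, 2.01 and 2.11 in hippocampus and at 0.64, 0.58 and 0.67 in cortex (1.42 ± 0.17), and Neurod2 differed by 0.80 ± 0.12. In the whole helix-loop-helix family 7 of 26 were called higher and 1 lower; the lower one was the Notch effector Hes5 (-1.15 ± 0.24). Emx2, a homeobox factor that hippocampal growth depends on, was higher (0.97 ± 0.20). Meis2, a TALE homeobox factor, was at 2.15, 2.56 and 2.66 in hippocampus and 3.76, 3.89 and 4.18 in cortex (-1.49 ± 0.22), and Meis1 differed by -1.18 ± 0.16.

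In the LIM homeobox family the extremes were Lhx9, higher, and Lhx8 and Isl1, lower, while 9 of 14 members were not called; Lmo1, a LIM-only cofactor, was higher (1.79 ± 0.30). Of 8 POU genes 2 were called lower, among them Pou3f2 (-1.02 ± 0.18), and 1 higher, Pou3f1. Of 26 forkhead genes 4 were called higher, among them Foxo6 (0.75 ± 0.13) and Foxn2 (0.84 ± 0.14), and 3 lower, led by Foxp2; without hippocampus array 1 only 1 was lower. Of 17 Sox genes only Sox6 was called (-0.35). Its probes differed in sign, and it was called in no subset of the arrays except that without hippocampus array 3, nor with the mean over its probes (adjusted p = 0.356) or slide as a random block (0.0529). Among 38 nuclear receptors 10 were lower and 2 higher (median -0.19). The higher ones were Nr3c2 and Nr4a3, an activity-induced orphan receptor above background on hippocampus arrays alone (at least 1.96-fold higher, not called with normexp). Pparg, a lipid-sensing receptor, was at -2.24, -1.94 and -1.87 in hippocampus and at -0.48, -0.27 and -0.60 in cortex (-1.57 ± 0.14, adjusted p = 4.34e-06). The retinoid receptor Rxrg differed by -1.86 ± 0.25, as did Rarb of the striatum list (-1.86 ± 0.20), and the vitamin D receptor Vdr by -1.33 ± 0.27.

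Of 17 ionotropic glutamate receptor subunits 4 were called higher and 1 lower (median 0.027); 3 to 5 were higher with 1 array left out, and 0 lower except without cortex array 3. Gria1, the AMPA receptor subunit GluA1, was at 6.31, 6.03 and 6.14 in hippocampus and at 4.75, 4.89 and 5.13 in cortex (1.24 ± 0.15, adjusted p = 5.05e-05, 2.35-fold). Grin2a, an NMDA receptor subunit, was at -2.07, -2.18 and -2.14 in hippocampus and -3.30, -3.40 and -3.16 in cortex (1.15 ± 0.15). Grik4 has been given above, and Gria2 differed by 0.44 ± 0.11 but not past the threshold without hippocampus array 1 or cortex array 3 (adjusted p = 0.0637 and 0.0538). The obligatory NMDA subunit Grin1, named after its values were seen, was at -0.96, -1.12 and -0.93 in hippocampus and -0.91, -1.01 and -1.18 in cortex (0.03 ± 0.11). Of 7 metabotropic receptors 2 were lower, the group III receptors Grm8 (-1.25 ± 0.20) and Grm4, the second above background on 2 of 3 hippocampus arrays.

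GABA receptor subunits moved in both directions, with 4 of 15 called higher and 4 lower (median -0.14), and 2 to 4 lower when 1 array was left out. Gabra5, the subunit of extrasynaptic receptors of pyramidal cells, was at 2.17, 2.15 and 2.08 in hippocampus and at 0.18, 0.05 and 0.26 in cortex (1.97 ± 0.13, adjusted p = 2.47e-07, 3.91-fold). Gabra2 was at 1.63, 1.81 and 1.12 in hippocampus and 0.46, 0.79 and 0.02 in cortex (1.10 ± 0.24). Gabrd, the delta subunit of other tonic receptors, was lower, at 3.08, 2.83 and 3.02 in hippocampus and 4.48, 4.41 and 4.47 in cortex (-1.48 ± 0.12, adjusted p = 2.36e-06). Gabra3 differed by -1.05 ± 0.21. The beta and gamma subunits Gabrb1, Gabrb2 and Gabrg1 were called with all arrays but not in every subset of them.

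Receptors for monoamines and acetylcholine had 8 of 34 called higher and 11 lower (median -0.033), in all 55.9% beside 16.7% of all genes tested. The D1-type dopamine receptor Drd5 was at -0.76, -1.27 and -0.81 in hippocampus and at -4.02, -3.77 and -3.60 in cortex (2.85 ± 0.18, adjusted p = 2.47e-07), with its 2 probes at 1.73 and 2.85. The serotonin receptor Htr5b was at -1.38, -1.34 and -1.13 in hippocampus and -3.65, -3.48 and -3.47 in cortex (2.25 ± 0.15). Htr1a, the inhibitory serotonin receptor, was higher by 1.27 ± 0.17, and the nicotinic subunits Chrna5 and Chrna7 by 1.51 ± 0.25 and 1.04 ± 0.16. Drd4, a D2-type receptor, was lower, at -4.16, -4.01 and -4.31 in hippocampus and -1.96, -2.19 and -2.34 in cortex (-2.0 ± 0.14). The adrenoceptor Adra1b differed by -2.35 ± 0.26, and Drd2 by the value given with the striatum list. Htr4 was at least 1.64-fold higher and Htr1d at least 2.13-fold lower, but both lost the call with normexp.

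Of 24 neuropeptide receptors 4 were called higher and 9 lower (median -0.18). After Npy2r, the melanocortin receptor Mc4r was higher, at -1.76, -1.87 and -1.59 in hippocampus and -3.73, -3.55 and -3.56 in cortex (1.87 ± 0.16, adjusted p = 3.53e-06). Cckbr, the brain cholecystokinin receptor, was lower, at -0.55, -0.40 and 0.49 in hippocampus and at 2.36, 2.58 and 2.24 in cortex (-2.55 ± 0.33). The substance P receptor Tacr1 differed by -1.90 ± 0.21 (other probe -0.63), Vipr2, a receptor for VIP and PACAP, by -1.56 ± 0.24, and Crhr1, a receptor for corticotropin-releasing hormone, by -1.28 ± 0.18. Npy and Vip and the receptors Npy2r and Vipr2 can be read side by side: the ligand genes were lower in hippocampus, Npy2r was higher and Vipr2 lower.

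Calcium-dependent kinases had more calls than the background. Of 14 genes of the CaM kinase group 7 were called lower and 4 higher (median -0.50), and 2 higher without hippocampus array 1. Camk2n1, an inhibitor of CaM kinase II, was at 4.28, 4.23 and 4.55 in hippocampus and 5.10, 5.27 and 5.19 in cortex (-0.83 ± 0.13), and the nuclear kinase Camk4 differed by -0.79 ± 0.15. Camk1d was higher (0.75 ± 0.14). Camk2a, the main kinase of potentiated synapses, was not called, at 6.49, 5.63 and 5.80 in hippocampus and 5.27, 6.07 and 5.05 in cortex (0.51 ± 0.28; named after its values were seen). Of 9 protein kinase C genes 4 were called higher, and 1 to 3 with 1 array left out; 2 were lower, led by Prkch (-1.08 ± 0.15). Of 23 plasticity kinases and scaffolds 5 were called higher and 3 lower, with 2 to 6 calls in all when 1 array was left out, the fewest without hippocampus array 1.

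Of 18 RGS genes, which speed the shut-off of G proteins, 7 were called lower and 1 higher (median -0.41). Rgs4 was at 1.63, 1.75 and 1.91 in hippocampus and at 3.15, 3.21 and 2.93 in cortex (-1.33 ± 0.11, adjusted p = 2.07e-06), and Rgs6 differed by -2.19 ± 0.24; Rgs14 was the higher one. Of 29 adenylyl cyclases and phosphodiesterases 8 were lower, among them the cyclase Adcy5 (-1.08 ± 0.14) and the phosphodiesterase Pde7b (-1.71 ± 0.30), and 2 higher (1 to 3 with 1 array left out). One of the higher ones was the calcium-stimulated cyclase Adcy1 (0.41 ± 0.09, not called with the mean over its probes, adjusted p = 0.0815), the other Pde11a, above background on hippocampus arrays alone and not called with normexp (adjusted p = 0.881). Rgs9 and Pde10a of these families are also striatum markers.

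**Figure D4:**
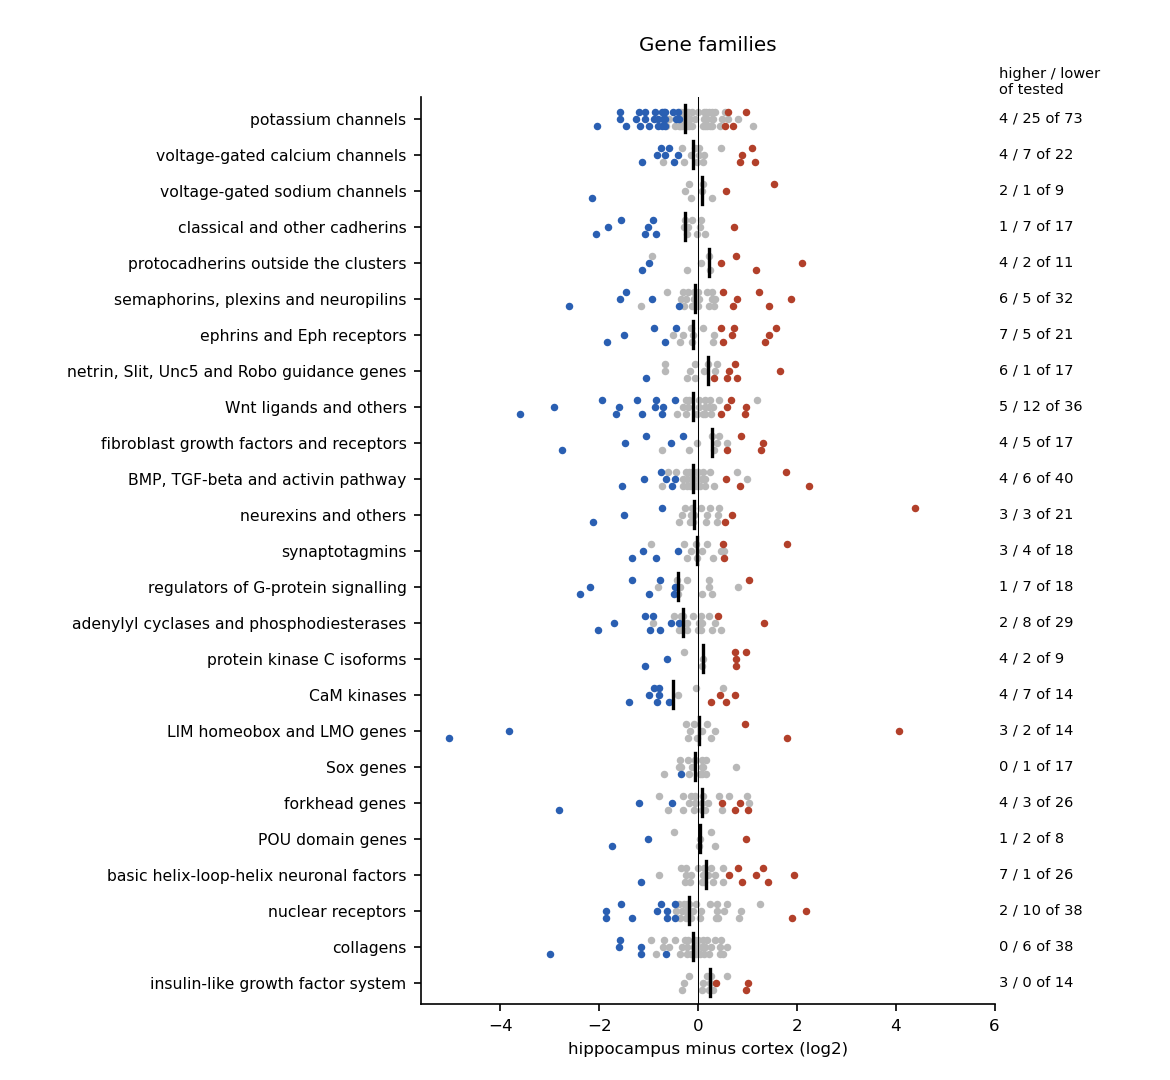
Difference between hippocampus and cortex (log2, x axis) of the tested members of 25 gene families, drawn as in the plot of cell type markers: red points were called higher in hippocampus, blue points lower, grey points were not called, and the black bar is the median. Potassium channels have 25 blue points and 4 red points among 73.

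Potassium channels, which set resting potential and firing pattern, were the largest family, and 25 of 73 were called lower and 4 higher (median -0.26), against 9.69% and 7.06% of all genes. Leaving out 1 array gave 18 to 25 lower calls. Kcnh5, an ether-a-go-go channel, was at -3.69, -3.86 and -3.35 in hippocampus and -1.88, -2.27 and -2.03 in cortex (-1.57 ± 0.22, adjusted p = 0.000213). The beta subunit Kcnab3 differed by -1.26 ± 0.17 and the leak channel Kcnk3 by -1.16 ± 0.17. Higher in hippocampus were Kcnj6, a G-protein-gated channel (0.98 ± 0.21), and Kcnn2, a small-conductance calcium-activated channel (0.71 ± 0.12).

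Of 22 calcium channel genes 4 were called higher and 7 lower, with 3 to 4 lower when any 1 array was left out. The T-type channel Cacna1h (1.09 ± 0.18) and the AMPA receptor auxiliary subunit Cacng8 (1.15 ± 0.21) were higher, and the related Cacng3 was lower (-1.13 ± 0.17). Of 9 sodium channel genes 2 were called higher (1 without hippocampus array 1) and 1 lower. The beta subunit Scn3b, one of the higher ones, was at 0.57, 0.32 and 0.33 in hippocampus and at -1.17, -1.28 and -0.98 in cortex (1.55 ± 0.17, adjusted p = 3.21e-05).

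Of 17 classical and other cadherins 7 were called lower and 1 higher (median -0.25), with 3 to 6 lower and 0 to 1 higher when 1 array was left out. Cdh22 was at 0.59, 0.66 and 1.22 in hippocampus and at 2.57, 2.65 and 2.71 in cortex (-1.82 ± 0.24), and Cdh7 differed by -2.06 ± 0.29. Of 11 protocadherins outside the gene clusters 4 were higher and 2 lower (median 0.23). Pcdh20 was at 3.71, 3.47 and 3.56 in hippocampus and at 1.57, 1.46 and 1.41 in cortex (2.10 ± 0.16, adjusted p = 1.49e-06), Pcdh19, mutated in an inherited epilepsy, differed by 1.17 ± 0.11, and Pcdh7 by -1.13 ± 0.19. Among 21 synaptic organizers 3 were higher and 3 lower. Cbln2, a cerebellin that bridges neurexins, was at -0.24, 0.20 and 0.50 in hippocampus and at 2.23, 2.07 and 2.54 in cortex (-2.13 ± 0.19), and Lrrtm3 differed by -1.51 ± 0.24. The higher ones were C1ql2, Slitrk3 and Slitrk5, of which C1ql2 alone was called whichever array was left out.

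Axon guidance genes changed in ligands and receptors alike. Of 32 semaphorins, plexins and neuropilins 6 were called higher and 5 lower (median -0.051). The receptor Nrp1 was at -0.55, -0.37 and -0.51 in hippocampus and -2.44, -2.53 and -2.10 in cortex (1.88 ± 0.16, adjusted p = 3.67e-06). Its ligand Sema3a was lower, at -4.19, -4.28 and -2.47 in hippocampus and at -0.94, -1.28 and -0.87 in cortex (-2.61 ± 0.41, and -3.20 without hippocampus array 3). Sema5a and Sema3e were higher by 1.44 ± 0.14 and 1.24 ± 0.20, and the Sema3e receptor Plxnd1 differed by -1.58 ± 0.34. Of 21 ephrins and Eph receptors 7 were higher (4 without hippocampus array 1) and 5 lower: the receptors Epha4 (1.35 ± 0.21), Epha6 (1.58 ± 0.21) and Epha7 (1.43 ± 0.20) were higher, and the ligand Efna5, at -0.37, -0.06 and 0.40 in hippocampus and 1.83, 1.77 and 1.88 in cortex, was lower (-1.84 ± 0.19). Of 17 netrin, Slit, Unc5 and Robo genes 6 were higher and 1 lower (median 0.21). Slit1 differed by 1.66 ± 0.16, its receptor Robo1 by 0.59 ± 0.11 and the netrin receptor Unc5c by 0.78 ± 0.12, whereas Unc5d, an upper-layer gene, differed by -1.05 ± 0.18.

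Secreted signals and their receptors followed no single direction. Of 36 Wnt pathway genes 12 were called lower and 5 higher (median -0.10), and 3 higher without cortex array 1. The ligand Wnt10a was at 0.08, 0.28 and 0.56 in hippocampus and 1.90, 1.79 and 2.0 in cortex (-1.59 ± 0.15, adjusted p = 8.25e-06), and Wnt6 differed by -1.94 ± 0.41. Rspo1 and Dkkl1 of this family have been given above. Dkk3 was higher (0.66 ± 0.11). Of 17 FGF genes 4 were higher, including the ligand Fgf10 (1.32 ± 0.17) and the receptor Fgfr1 (1.27 ± 0.22), and 5 lower, including the intracellular Fgf12 (-1.05 ± 0.15). Of 40 genes of the BMP, TGF-beta and activin pathway 4 were higher and 6 lower, and 3 and 3 without hippocampus array 2 or cortex array 1. With all arrays that is 25% called, beside 16.7% of all genes tested. Tgfb2 was at 1.21, 1.29 and 1.14 in hippocampus and at -1.07, -1.13 and -0.90 in cortex (2.25 ± 0.20, adjusted p = 4.74e-06), the BMP antagonist Grem1 differed by 1.77 ± 0.32, and Bmp7 by -1.10 ± 0.19. Of 38 collagens 0 were higher and 6 lower, and 3 lower without hippocampus array 1 or cortex array 2. Their share called, 15.8%, was near that of all genes. Col26a1 differed by -1.59 ± 0.26.

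Activity-dependent genes were lower in the median, at -0.70 over 22 immediate early genes, of which 7 were called lower and 3 higher; with 1 array left out, 3 to 6 were lower. Ier5 was at 3.70, 3.79 and 4.05 in hippocampus and at 4.68, 4.71 and 4.82 in cortex (-0.89 ± 0.10, adjusted p = 3.74e-05). Nptx2, a secreted pentraxin of excitatory synapses, differed by -0.80 ± 0.16. Jun, a subunit of AP-1, was higher, at 1.85, 1.88 and 1.64 in hippocampus and 0.61, 0.81 and 0.76 in cortex (1.07 ± 0.13), and Bdnf, the neurotrophin, was at 1.11, 1.02 and 1.12 in hippocampus and 0.04, 0.07 and 0.30 in cortex (0.95 ± 0.16, adjusted p = 0.000815). Fos and Arc, singled out after their values were seen, did not pass the test (-1.23 ± 0.52 and -0.84 ± 0.33).

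Of 12 corticosteroid receptors and targets 3 were called higher and 3 lower. Next to Nr3c2, the co-chaperone Fkbp5 was higher, at -0.79, -1.11 and -0.73 in hippocampus and -2.30, -2.24 and -1.85 in cortex (1.25 ± 0.25), as was Hsd11b1, the enzyme that regenerates active glucocorticoid (0.93 ± 0.14). Cdkn1a, the cell cycle inhibitor p21, was lower (-2.09 ± 0.34). The glucocorticoid receptor Nr3c1, named after its values were seen, did not pass the test (-0.23 ± 0.09, adjusted p = 0.0927). Of 16 neurogenesis genes 2 were higher (1 without cortex array 1 or cortex array 2) and 1 lower. That is 18.8% called, close to the 16.7% of all genes tested. Dcx, doublecortin of immature neurons, was the lower one, at -0.11, 0.22 and 0.18 in hippocampus and at 1.41, 1.51 and 1.17 in cortex (-1.27 ± 0.19, adjusted p = 0.00031), and Hopx was higher (0.88 ± 0.19).

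Housekeeping and stress pathways stayed near the background. Of 28 genes of oxidative phosphorylation 0 were called in either direction (limma; median -0.052), and 1 lower with quantile normalization. Of 24 NRF2 target genes 1 was called higher and 2 lower (median -0.023): Gsta4 differed by 0.35 and lost the call without any 1 array, the sulfiredoxin gene Srxn1 by -0.53 ± 0.09 (3 probes at -0.53 to -0.06) and G6pdx by -0.38 ± 0.09. Of 17 clock genes 3 were lower, led by the output factor Hlf (-0.85 ± 0.13).

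The same comparison in knockout mice used 6 other arrays and gave 3693 calls (16.3%). Its hippocampus arrays were on slides 2 and 3 and its cortex arrays on slides 4 and 5, as in wild type. Slide and region therefore cannot be told apart in either genotype, and the 2 comparisons share the estimate of the spread. Of the 3797 wild-type calls 2887 (76.0%) were called in knockout mice in the same direction, which is 78.2% of the knockout calls, and 0 were called in the opposite direction. The difference had the same sign in both genotypes for 3781 of the 3797. For Dsp, the knockout difference was 4.82, for Lct 3.73, for Lhx8 -4.76, for Rspo1 -2.92 and for Gabra5 1.89. The test of the difference between genotypes called 0 of 22672 genes (limma), with 195 (0.860%) at an unadjusted p under 0.05, and 1 gene with quantile normalization. This share is smaller than a calibrated test gives when no gene differs, so the test appears conservative here. Its 0 calls do not show that the regional difference is the same in both genotypes. The striatum list had a median of -1.90 and 11 of 12 members lower in knockout mice, where its summed level was 12.4 to 16.5 in hippocampus and 54.8 to 77.7 in cortex.

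**Figure D5:**
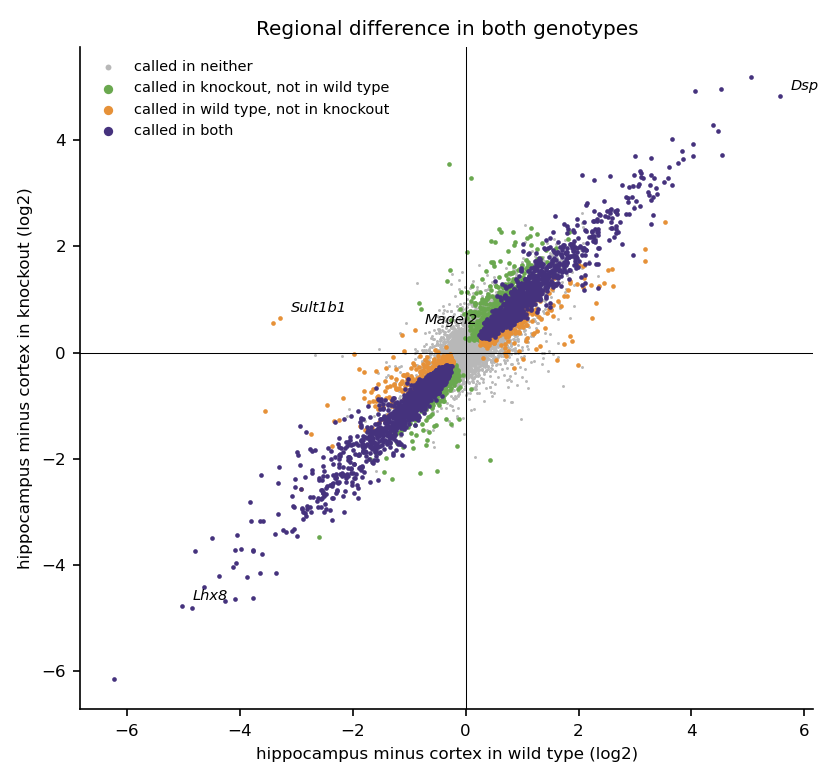
Difference between hippocampus and cortex (log2) in knockout mice (y axis) against that in wild-type mice (x axis), 1 point per gene. Purple points were called in both genotypes in the same direction (2887 genes), orange points in wild type and not in knockout mice, green points in knockout and not in wild-type mice; Sult1b1 and Magel2 lie left of 0 on the x axis and above 0 on the y axis.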

How the data were processed

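Total RNA of 18 brain samples was amplified, labelled with Cy3 and hybridised to 1-colour Agilent mouse arrays, per the labels' protocols. Per the file headers, the authors' scanner files hold a background-subtracted intensity per spot made by Agilent Feature Extraction; this deposited intensity is not normalized between arrays. The deposited series table holds intensity values too; it was set against the scanner files and not used further. Control spots were left out, log2 intensity was taken relative to the 75th percentile of each array, and spots of one probe were averaged. A probe was kept if all 3 arrays of any of the 6 groups of the series measured it well above background (30067 probes), and a gene was represented by its brightest probe on average, which gave 22672 genes, 14826 of them with a symbol in the files.

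limma 3.58.1 in R 4.3.3 fitted 1 mean per group over all 18 arrays, which share 1 estimate of the spread, and adjusted p by Benjamini-Hochberg over all genes. The fit was tested on simulated data. Genes were named by a rule: the largest differences and bounds in each direction, the largest differences called in each gene list, and those that differ between genotypes; exceptions are marked where they occur, and some genes that the rule gives are not reported here. The members and the 60 gene lists were chosen with earlier results of these data known. Nothing says that samples came from separate animals beyond the design text, so p-values cover the spread between samples, which may be technical. The number of arrays limits the precision. Alternatives were normexp background correction with an offset of 50 (on median signals, since the files hold no mean signal), quantile normalization, other filters, only the 6 arrays, replicate and slide blocks, trend and robust moderation, the mean over probes, and leaving out each array in turn.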

Additional observations from a re-analysis of the deposited data

Results flagged for a closer look

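Only the 367 genes named by the rule were searched here, some of them picked for a small p for the difference between genotypes. In 2 of the 367 every wild-type hippocampus array lay below every wild-type cortex array, while the measured values ran the other way in knockout mice. Sult1b1, a cytosolic sulfotransferase, was at -8.73, -7.49 and -8.60 in wild-type hippocampus and at -5.12, -5.19 and -4.65 in wild-type cortex, a difference of -3.29 (at least 3.47-fold lower), against 0.64 in knockout mice, where all 6 arrays lay between -8.79 and -7.86. These knockout values are below the dimmest well-measured signal of each array (-6.71 to -6.23), so their order and the 0.64 carry no direction. Magel2, an imprinted gene, was at -2.77, -2.21 and -2.26 in wild-type hippocampus and at -1.42, -1.57 and -1.54 in wild-type cortex, a difference of -0.90, against 0.42 in knockout mice. The test of the difference between genotypes gave -3.93 ± 0.84 for Sult1b1 and -1.33 ± 0.25 for Magel2 and called neither (limma, adjusted p = 1.0 for both).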

How the results depend on the processing

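Counts of called genes kept within 1.5 times the reported 1601 higher and 2196 lower under every alternative that kept all arrays, with the fewest higher calls under normexp (1128), the fewest lower calls with slide as a random block (1621), and the most of both with the replicate number as a block over 18 arrays (2305 and 2697); a replicate block over only the 6 arrays gave 1929 and 1865. Leaving out 1 array gave 978 to 1515 higher and 1429 to 1893 lower calls, the fewest without hippocampus array 1. In knockout mice the replicate block gave 2627 higher calls, against 1715 without it. Same-numbered hippocampus and cortex arrays deviated together at r = 0.0398, 0.220 and 0.227 across genes. Each cortex array correlated best with the hippocampus array of its own number. Hippocampus array 1, however, correlated better with cortex array 2 (0.123). These values do not settle whether the numbers pair the samples, and the reported fit does not pair them. The test between genotypes called 1 gene lower with quantile normalization. Among the 350 called genes named by the rule, 2 turned direction with normexp, Chrnb4 (-0.050) and Foxb2 (-0.037), both dim. Other genes were not searched for this. Of 350 called genes named by the rule, 235 were called under every alternative and 257 under those that kept all arrays; the replicate block over the 6 arrays called 304 of them. The median of 20 of 60 gene lists changed sign under some alternative, that of choroid plexus (0.742) being the largest of these. The cause was not tested. Slide and region cannot be told apart, and genes near background have only bounds.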

Other observations

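Other gene groups were called as follows. Of 18 synaptotagmins, the calcium sensors of vesicle release, 3 were higher and 4 lower in hippocampus (0 to 2 higher with 1 array left out). Of 14 genes of the insulin-like growth factor system 3 were higher and 0 lower (1 to 2 higher with 1 array left out). With all arrays that is 21.4% called, beside 16.7% of all genes tested. Of 11 markers of thalamus and habenula 2 were higher and 4 lower, with 1 to 4 lower when 1 array was left out. Of 3 erythrocyte genes 0 were called (limma).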
